A study of Mus musculus with 16 samples.

Results

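The proteasome genes were chosen by symbol, as every gene of the count tables named *Psma*, *Psmb*, *Psmc*, *Psmd*, *Psme* or *Psmg* followed by a number. Of 24421 genes, 49 matched, and 47 of them had at least 10 reads in 3 or more libraries of Gas and likewise of Sol. One of the 47, *Psmc3ip*, shares only its symbol with the complex and encodes a partner of meiotic recombinases, so 46 genes were described as the proteasome. The 2 genes that were not kept were *Psma8*, a testis variant of an alpha subunit with 0 to 5 reads per library, and *Psmb11*, the catalytic subunit of the thymus with 0 to 1 reads. The 46 genes comprised 7 of the 20S alpha ring, 4 structural and 3 catalytic subunits of the 20S beta ring, and 3 of the immunoproteasome. The regulatory particle was represented by 6 subunits of the 19S ATPase ring, 3 further base subunits and 8 lid subunits. The remaining genes were 3 chaperones of 19S assembly, 5 genes of the 11S and other activators, and 4 chaperones of 20S assembly.

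The proteasome degrades proteins that carry chains of ubiquitin. Its 20S core is a barrel of stacked alpha and beta rings that cuts proteins inside, while the 19S particle binds ubiquitin, removes it and feeds the unfolded chain into the core. In immune cells and under interferon the 3 catalytic subunits are replaced by inducible ones to form the immunoproteasome, and in wasting muscle the ubiquitin-proteasome system is the main route by which contractile proteins are broken down.

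RNA was sequenced from the gastrocnemius (Gas), in which fast fibers dominate, and from the soleus (Sol), which is rich in slow fibers. Tamoxifen (75 mg/kg, 5 days) and the synthetic glucocorticoid dexamethasone (Dex; 1 mg/kg, 7 days) were given to male C57BL/6 mice aged 8 weeks. LSD1-mKO mice carried Lsd1 flox/flox and a CreERT2 transgene under the human ACTA1 promoter, so that only cells in which this promoter is active lose the gene, and WT mice were Lsd1-floxed without CreERT2. There were 3 WT and 5 LSD1-mKO libraries of each muscle. All 16 libraries came from mice treated with both drugs, so nothing here measures the response to Dex itself.

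Each library held 10130415 to 24576377 reads assigned to genes. Levels are given as CPM, the reads of a gene scaled to the size of its library, with library sizes adjusted by TMM over the 16 libraries. *Kdm1a*, which encodes LSD1, stood at 40.0, 37.2 and 48.2 CPM in WT Gas and at 13.2, 13.2, 17.7, 14.7 and 12.0 CPM in LSD1-mKO Gas. In Sol it stood at 34.1, 34.9 and 33.4 CPM in WT and at 11.2, 9.12, 12.2, 9.15 and 12.9 CPM in LSD1-mKO. Its log2 fold change (log2FC) of LSD1-mKO over WT was -1.56 ± 0.18 (SE) in Gas and -1.66 ± 0.14 in Sol, with adjusted p of 0.0177 and 0.000574 by the edgeR quasi-likelihood test, and the genotypes did not overlap in either muscle. All 5 slow fiber markers were lower and 4 of 5 fast fiber markers higher in Gas than in Sol in both genotypes, with adjusted p under 0.05. Of all genes, 17% passed this limit in WT and 24.5% in LSD1-mKO. The other fast fiber marker, *Myh1*, did not pass it and was lower in Gas, with log2FC of -0.82 in WT and -0.63 in LSD1-mKO. In WT its groups did not overlap, beside 30.3% of all genes. The study describes groups of mice, with fewer LSD1-mKO mice for Sol than the libraries counted here, and the labels do not tie libraries to animals, so p-values measure the spread between these libraries, and in whole muscle fewer cells of a type and less RNA per cell cannot be told apart.

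The 46 genes lay on 16 chromosomes, 9 of them on chromosome 11. *Psmb8* and *Psmb9* lay on chromosome 17 in the region of the major histocompatibility complex (MHC), where the exons of *Psmb9* and *Tap1* overlapped on opposite strands. Promoter windows of 250 bases before to 50 bases after the start, from RefSeq (GRCm38.p6), were at hand for 39 of the 46 genes. The windows of *Psmb1*, *Psmb2*, *Psmb7*, *Psmc3*, *Psmd3*, *Psmd7* and *Psmg2* were not used here. Both strands were searched for TGANNNNGC, with any 4 bases between TGA and GC. This is a loose form of the core of the antioxidant response element, which the factors NFE2L1 and NFE2L2 bind. It was present in the windows of 22 of the 39 genes (56.4%), against 45% of 27025 genes. The core of the interferon-stimulated response element, GAAA repeated after any 2 bases, was present for 5 of the 39 genes (12.8%), against 3.99% of all genes. Those 5 were *Psmb3*, *Psmd4*, *Psmd9*, *Psme1* and *Psmg4*, and the windows of the 3 immunoproteasome genes held no match. The core of the nuclear respiratory factor 1 motif, GCGCA and GCGC around any 1 base, was present for 7 genes (17.9%, against 5.19%), and CCAAT for 13 (33.3%, against 41.1%). The following windows belong to genes that differed between the muscles (below) and held an antioxidant or interferon core. They are written 5′ to 3′ on the strand of the gene. The capitals mark TGANNNNGC on either strand, except in *Psme1*, where they mark the interferon-stimulated core.
Psmb6 (chr11:70525107-70525406, plus strand): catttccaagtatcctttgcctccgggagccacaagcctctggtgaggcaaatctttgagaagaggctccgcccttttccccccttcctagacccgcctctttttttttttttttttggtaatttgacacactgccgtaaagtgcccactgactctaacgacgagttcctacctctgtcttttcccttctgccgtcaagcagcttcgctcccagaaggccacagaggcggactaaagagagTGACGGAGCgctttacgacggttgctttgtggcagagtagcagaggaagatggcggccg
Psmc2 (chr5:21786497-21786796, plus strand): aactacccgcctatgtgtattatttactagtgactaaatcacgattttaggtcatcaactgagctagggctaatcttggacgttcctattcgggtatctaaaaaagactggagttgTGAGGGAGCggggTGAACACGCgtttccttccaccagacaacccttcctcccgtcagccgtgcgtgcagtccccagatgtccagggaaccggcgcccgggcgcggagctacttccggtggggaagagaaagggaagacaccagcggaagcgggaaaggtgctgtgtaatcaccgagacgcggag
Psmd8 (chr7:29180624-29180923, minus strand): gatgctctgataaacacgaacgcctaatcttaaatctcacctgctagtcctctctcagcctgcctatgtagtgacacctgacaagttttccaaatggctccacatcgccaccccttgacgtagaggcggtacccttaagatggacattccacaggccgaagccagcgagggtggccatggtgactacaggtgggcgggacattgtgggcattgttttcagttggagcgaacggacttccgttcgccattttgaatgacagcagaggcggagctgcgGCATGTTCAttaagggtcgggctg
Psmd5 (chr2:34870913-34871212, minus strand): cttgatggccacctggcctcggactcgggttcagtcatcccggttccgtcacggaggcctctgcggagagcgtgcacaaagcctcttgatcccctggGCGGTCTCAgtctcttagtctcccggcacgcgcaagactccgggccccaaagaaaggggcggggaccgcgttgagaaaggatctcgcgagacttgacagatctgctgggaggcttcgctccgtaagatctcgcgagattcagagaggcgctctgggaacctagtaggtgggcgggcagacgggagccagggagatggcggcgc
Psme1 (chr14:55578244-55578543, plus strand): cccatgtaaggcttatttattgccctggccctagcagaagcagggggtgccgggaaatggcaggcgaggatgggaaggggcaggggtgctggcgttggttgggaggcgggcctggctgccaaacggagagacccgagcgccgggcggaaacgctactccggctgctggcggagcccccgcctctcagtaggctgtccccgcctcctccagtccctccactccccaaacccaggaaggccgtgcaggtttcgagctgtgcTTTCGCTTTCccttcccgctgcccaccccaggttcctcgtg
A match describes the letters of the window and does not show that a factor binds there. The windows of *Psma3* and *Psmd6*, which also differed between the muscles, held neither core.

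Across the 46 genes the steady level of mRNA differed far more between subunits than between groups. Levels between genes are compared as CPM per kilobase of exon. *Psmb7*, the trypsin-like catalytic subunit, had the highest level in each group, at 402 ± 265 (SD, n = 3) in WT Gas, 247 ± 88.3 (n = 5) in LSD1-mKO Gas, 205 ± 48.7 (n = 3) in WT Sol and 193 ± 18.6 (n = 5) in LSD1-mKO Sol. *Nek6* overlaps 34.9% of its exons on the opposite strand, and with the exons of every annotated transcript as its length it ranked 7th in WT Gas, 9th in LSD1-mKO Gas, 8th in WT Sol and 10th in LSD1-mKO Sol rather than first. Of the 45 pairs of neighbours in the order of levels, 0 in WT Gas, 2 in LSD1-mKO Gas, 1 in WT Sol and 7 in LSD1-mKO Sol were apart by more than the spread between libraries.

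The subunits of the 26S complex, the alpha ring, the beta ring and the 19S particle, spanned 8.98-fold in WT Gas, 7.05-fold in LSD1-mKO Gas, 7.62-fold in WT Sol and 7.05-fold in LSD1-mKO Sol. In LSD1-mKO Sol, the group with the narrowest spread between libraries, the alpha ring ran from *Psma3* at 27.4 ± 2.90 to *Psma7* at 143 ± 14.2 CPM per kilobase (SD, n = 5). *Psma6* at 139 ± 13.8 was within the spread of *Psma7*, and with the exons of every transcript *Psma6* ranked 1st and *Psma7* 18th of the 46 genes. Of the ATPases that unfold substrates, *Psmc6* stood at 53.2 ± 4.12 and *Psmc3* at 153 ± 9.71 CPM per kilobase. The lid, which holds the deubiquitinase *Psmd14*, ran from *Psmd11* at 33.3 ± 2.80 to *Psmd8* at 158 ± 31.1 CPM per kilobase. The assembly chaperones were lower than every core subunit. *Psmd5* and *Psmd10*, which guide the ATPase ring, stood at 6.69 ± 0.994 and 9.18 ± 1.81, and *Psmg3* and *Psmg2*, which guide the alpha ring, at 7.19 ± 0.685 and 16.2 ± 1.44 CPM per kilobase. Of the activators that can replace the 19S particle, *Psme4* (PA200) stood at 34.4 ± 2.69, *Psme1* (PA28 alpha) at 32.5 ± 3.11 and *Psme2b*, a copy of *Psme2* that shares sequence with it and is therefore uncertain, at 1.01 ± 0.0655 CPM per kilobase.

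The 3 inducible catalytic subunits were expressed far below their constitutive partners in each of the 16 libraries. *Psmb8*, the inducible chymotrypsin-like subunit, stood at 6.44, 6.80 and 15.9 CPM in WT Gas and at 3.79, 4.33, 6.46, 5.62 and 9.81 CPM in LSD1-mKO Gas. In Sol it stood at 3.90, 8.63 and 4.92 CPM in WT and at 2.81, 3.41, 5.38, 3.64 and 4.93 CPM in LSD1-mKO. Its constitutive partner *Psmb5* stood at 57.5, 53.8 and 119 CPM in WT Gas and at 58.7, 45.4, 43.2, 47.4 and 97.3 CPM in LSD1-mKO Gas. The third WT Gas and the fifth LSD1-mKO Gas library were the highest of their groups for both genes. In Sol, *Psmb5* stood at 35.4, 57.8 and 38.0 CPM in WT and at 46.0, 54.7, 45.7, 36.5 and 48.0 CPM in LSD1-mKO. Per kilobase, *Psmb8* amounted to 6.84 ± 0.602% of *Psmb5* in WT Gas (SD, n = 3), 5.84 ± 1.73% in LSD1-mKO Gas (n = 5), 7.16 ± 1.08% in WT Sol (n = 3) and 4.90 ± 1.41% in LSD1-mKO Sol (n = 5).

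*Psmb9*, the inducible form of the caspase-like subunit, was the lowest of the catalytic genes. It stood at 1.78, 3.01 and 5.21 CPM in WT Gas, 0.701, 1.17, 2.56, 2.19 and 2.98 CPM in LSD1-mKO Gas, 1.28, 2.95 and 2.08 CPM in WT Sol, and 0.925, 1.59, 1.37, 1.31 and 1.99 CPM in LSD1-mKO Sol. Its partner *Psmb6* stood at 173, 163 and 455 CPM in WT Gas, 155, 132, 131, 133 and 257 CPM in LSD1-mKO Gas, 98.6, 175 and 102 CPM in WT Sol, and 115, 121, 115, 115 and 128 CPM in LSD1-mKO Sol. The genotypes overlapped for both genes in each muscle. *Psmb10*, the inducible trypsin-like subunit, stood at 13.2, 12.4 and 45.0 CPM in WT Gas, 10.1, 9.22, 10.4, 12.6 and 21.5 CPM in LSD1-mKO Gas, 10.2, 18.0 and 11.3 CPM in WT Sol, and 10.01, 11.5, 10.5, 9.40 and 9.65 CPM in LSD1-mKO Sol. Its partner *Psmb7* stood at 301, 276 and 821 CPM in WT Gas, 248, 222, 255, 237 and 468 CPM in LSD1-mKO Gas, 201, 303 and 209 CPM in WT Sol, and 195, 235, 208, 232 and 248 CPM in LSD1-mKO Sol. Per kilobase, *Psmb9* was between 0.708 ± 0.163% (LSD1-mKO Sol, SD, n = 5) and 0.990 ± 0.221% (WT Sol, n = 3) of *Psmb6*, and *Psmb10* between 3.94 ± 0.465% (LSD1-mKO Gas, n = 5) and 4.84 ± 0.387% (WT Sol, n = 3) of *Psmb7*.

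**Figure D1:**
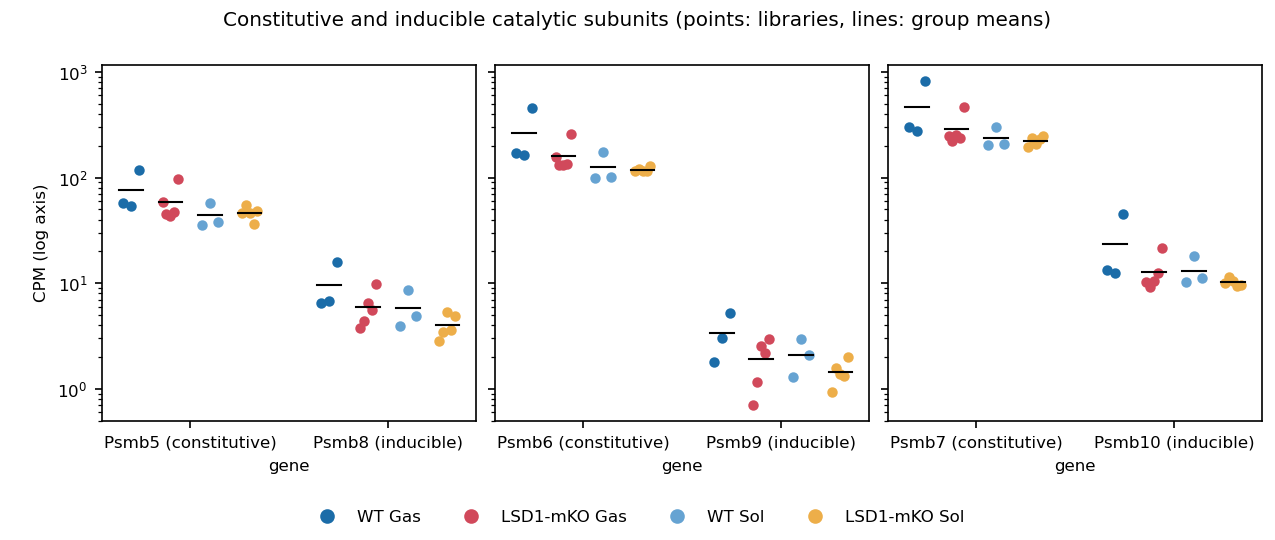
CPM on a log axis for each constitutive catalytic subunit and its inducible partner, with 1 point per library and a line at the mean of each group. The inducible genes sit far below their partners in every group, and 1 WT Gas library (119 CPM for *Psmb5*, 455 for *Psmb6*, 821 for *Psmb7*) lies above the rest.

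The proteasome genes moved together between libraries of 1 group, and 2 Gas libraries of opposite genotype stood apart. The summed level of the genes was 5307, 5119 and 10555 CPM in WT Gas and 5422, 5046, 6086, 5002 and 8090 CPM in LSD1-mKO Gas. In Sol it was 4389, 5300 and 4394 CPM in WT and 4928, 5280, 4893, 4426 and 5097 CPM in LSD1-mKO. WT Gas replicate 3 and LSD1-mKO Gas replicate 5 thus had the 2 highest sums, and WT Sol replicate 2 was the highest of the Sol libraries by a small margin. The median deviation of the 46 genes from their means over the 16 libraries was 1.04 and 0.55 (log2) in the 2 Gas libraries and 0.10 in WT Sol replicate 2, and lay between -0.29 and -0.01 in the other 13.

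**Figure D2:**
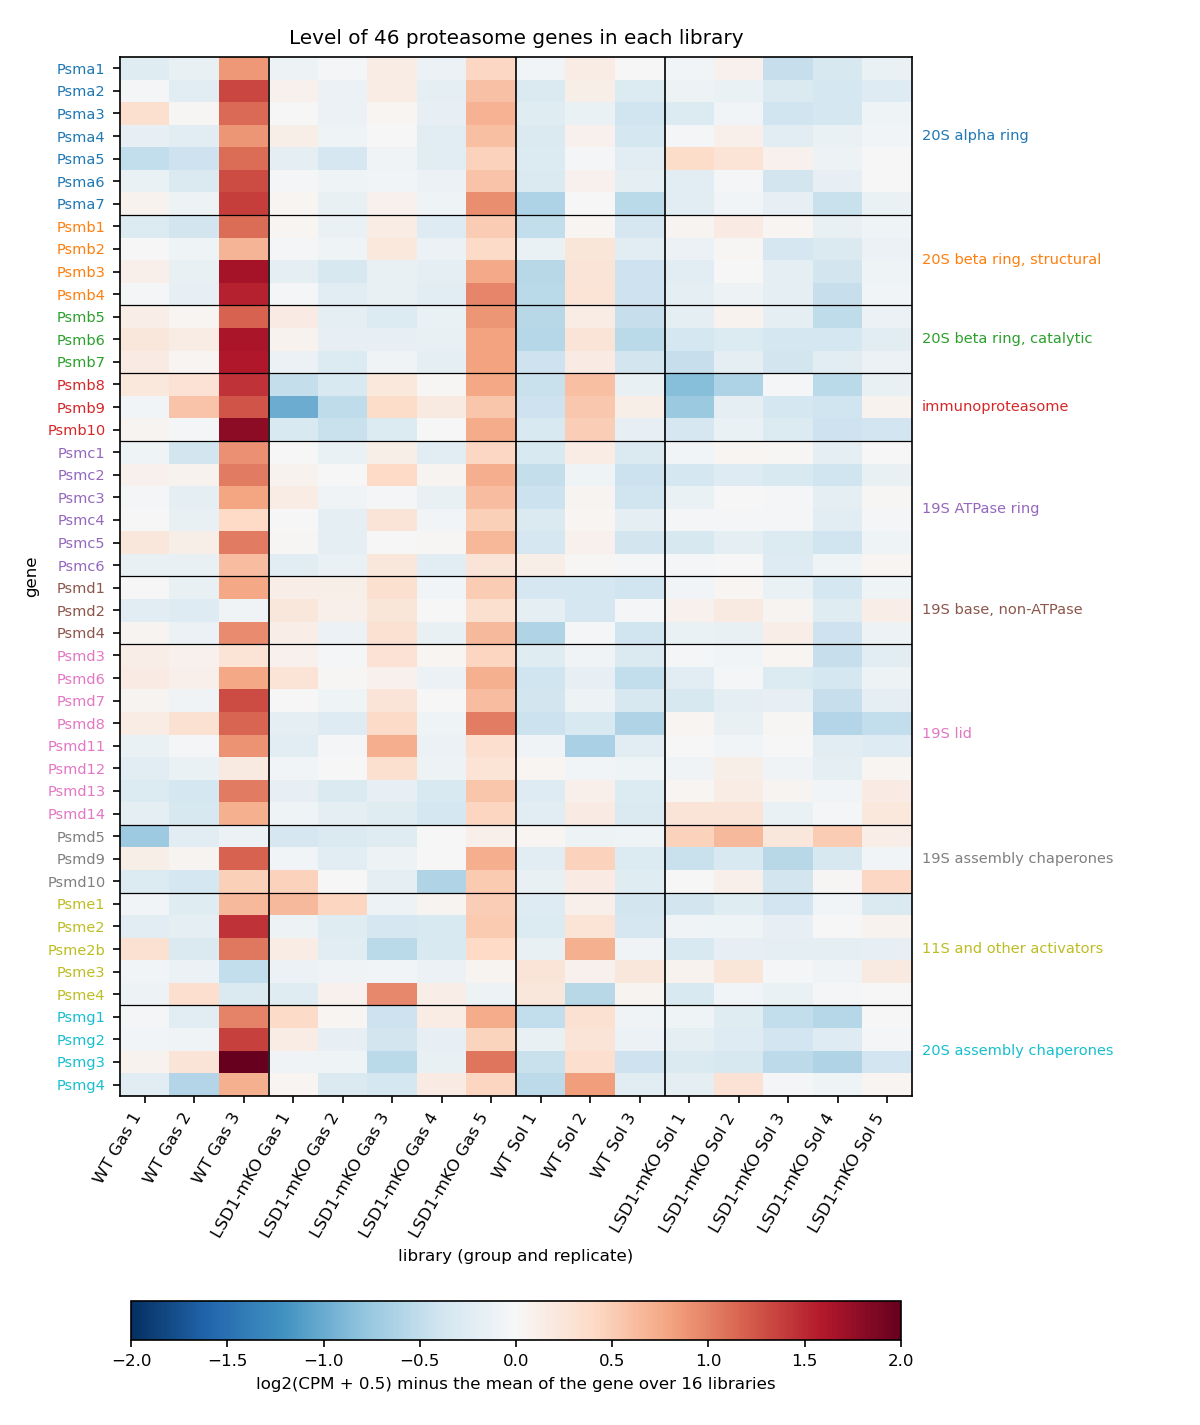
Each row is a proteasome gene, grouped by class, each column a library, and the colour is its log2(CPM + 0.5) minus the mean of the gene over the 16 libraries. WT Gas 3 is above the mean for nearly all genes and LSD1-mKO Gas 5 is so to a smaller degree, with median deviations of 1.04 and 0.55.

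The shift in WT Gas replicate 3 was not even across the complex. Against the mean of the other 2 WT Gas libraries, its level was 2.64-fold (median of 7 genes) in the alpha ring, 2.92-fold in the structural and 2.72-fold in the catalytic beta subunits, and 2.40-fold in the immunoproteasome. It was 1.84-fold in the ATPase ring, 1.80-fold in the other base subunits and 1.94-fold in the lid. The activators *Psme3* and *Psme4* were the 2 of 46 genes that were lower in this library, with *Psme3*, the nuclear activator PA28 gamma, at 50.1 CPM against 68.5 and 65.6. *Psmd2*, a scaffold that docks the shuttle proteins of ubiquitin chains, reached 315 CPM against 281 and 277. Genes with shorter exon sequence were raised more, with a median of 2.49-fold in the 23 shorter than the median length and 1.92-fold in the other 23 (Spearman rho of -0.55 between exon length and fold across the 46 genes, which share the libraries and are not replicates).

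The same 3 libraries had the highest levels of ribosomal protein genes in their groups. The mean level of 70 ribosomal protein genes was 9.02 (log2 CPM) in WT Gas replicate 3, against 8.28 for the fifth LSD1-mKO Gas library and 7.63 for the second WT Sol library. It was 7.42 to 7.81 in the other Gas and 6.78 to 7.19 in the other Sol libraries. Markers of other cell types did not move as one in WT Gas replicate 3. Its leukocyte sum of 319 CPM was the highest in Gas, mostly from *Lyz2* at 224 CPM (110 and 133 in the other WT Gas libraries), while *Ptprc*, which marks all leukocytes, stood at 3.29 CPM (3.35 and 3.13). Of the fibroblast markers *Dcn* was higher there at 1489 CPM (715 and 652), and *Col1a1* was lower at 49.6 CPM (162 and 199). Its slow fiber sum was 1447 CPM (619 and 568) and its endothelial sum 214 CPM (330 and 394). The part of these differences in the results below was not tested, and the fits were repeated without the 3 libraries.

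**Figure D3:**
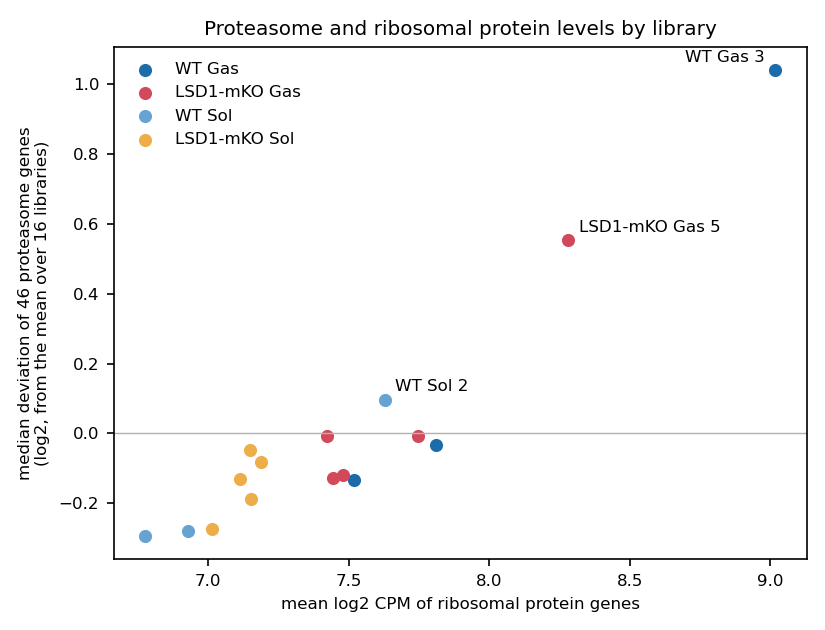
Mean log2 CPM of 70 ribosomal protein genes (horizontal) against the median log2 deviation of the 46 proteasome genes (vertical), 1 point per library. WT Gas 3 (9.02 and 1.04) and LSD1-mKO Gas 5 (8.28 and 0.55) lie apart from the other libraries.

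The first comparison asked whether loss of LSD1 changed the proteasome genes in the fast muscle under Dex. In Gas, 0 of 46 genes were called at an adjusted p under 0.05, beside 0.0307% of the 13040 genes tested, and 0 had an unadjusted p under 0.05, beside 9.06% of all genes. DESeq2 likewise called 0 of the 46, beside 132 (1.01%) of all genes. The fold changes were negative for 37 and positive for 9 of the 46, with a median of -0.22 (log2) against 0.01 over all genes. The values ran from -0.94 to 0.37, with a median standard error of 0.30 and a smallest adjusted p of 0.555. *Psmd2* was the only 1 of the 46 whose groups did not overlap, beside 6.95% of all genes.

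The direction in Gas rested on WT Gas replicate 3. Without it the median was 0.21 and 39 of the 46 genes were positive. Without the libraries of high ribosomal protein level the median was 0.08 and 29 were positive, and 0 genes were called in either case. Without LSD1-mKO Gas replicate 5, 10 of the 46 (21.7%) had an unadjusted p under 0.05, beside 15.3% of all genes in that fit, and 0 were called. The lowest median with 1 library left out was -0.44. No direction can therefore be given to the complex as a whole in Gas.

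By class, all 7 alpha ring genes, all 7 constitutive beta genes, all 3 immunoproteasome genes and all 4 chaperones of 20S assembly were negative in Gas with all libraries, with medians of -0.38 for the alpha ring, -0.37 for the structural and -0.70 for the catalytic beta subunits, -0.77 for the immunoproteasome and -0.33 for the chaperones. The 19S classes lay nearer 0, at -0.17 for the ATPase ring, -0.05 for the other base subunits and -0.17 for the lid. In WT Gas replicate 3 the 20S rings were raised by medians of 2.64- to 2.92-fold, and these 19S classes by 1.80- to 1.94-fold (above). The part of that library in this order of the classes was not tested. *Psmg3*, a chaperone that pairs alpha subunits, had the most negative value. It stood at 9.11, 10.5 and 37.6 CPM in WT and at 8.23, 8.12, 5.82, 7.72 and 18.8 CPM in LSD1-mKO Gas. Its log2FC was -0.94 ± 0.50 (SE, adjusted p = 0.557), and 0.00 without WT Gas replicate 3. *Psmb10* followed at -0.86 ± 0.43 (adjusted p = 0.555) and *Psmb3*, a structural beta subunit at 72.6, 60.8 and 215 CPM in WT and 59.5, 54.1, 60.7, 59.9 and 114 CPM in LSD1-mKO, at -0.73 ± 0.41 (adjusted p = 0.568). Without that library the values of *Psmb10* and *Psmb3* were 0.00 and 0.07.

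The 3 most positive genes in Gas were *Psmd2*, *Psme4* and *Psmd5*. *Psmd2* stood at 281, 277 and 315 CPM in WT and at 386, 355, 392, 330 and 414 CPM in LSD1-mKO, so that each LSD1-mKO library was above each WT library. The log2FC was 0.37 ± 0.17 (SE, adjusted p = 0.555), and 0.44 without WT Gas replicate 3 and 0.41 without the libraries of high ribosomal protein level. *Psme4*, the activator PA200, stood at 224, 303 and 197 CPM in WT and at 202, 256, 468, 262 and 225 CPM in LSD1-mKO, with 1 high library, and its log2FC was 0.23 ± 0.29, or -0.03 without that library. *Psmd5*, a chaperone of the ATPase ring, stood at 13.1, 18.9 and 20.2 CPM in WT and at 17.4, 17.9, 18.6, 22.2 and 23.6 CPM in LSD1-mKO, and its log2FC was 0.20 ± 0.20, and from 0.034 to 0.32 when 1 library was left out. The groups overlapped for *Psme4* and *Psmd5*.

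With all libraries, the proteasome genes in the slow muscle were split evenly in direction between the genotypes, and this split depended on 1 library. In Sol, 0 of 46 genes were called, beside 0.967% of the 13342 genes tested, and 1 had an unadjusted p under 0.05, beside 15.5% of all genes. DESeq2 also called 0 of the 46, beside 605 (4.53%) of all genes. The fold changes were positive for 23 and negative for 23, with a median of 0.00 (log2) against -0.01 over all genes, and ran from -0.62 to 0.45 with a median standard error of 0.15. Without WT Sol replicate 2, the 1 Sol library of high ribosomal protein level, the median was 0.14 with 34 genes positive. Then 11 of the 46 (23.9%) had an unadjusted p under 0.05, beside 14.7% of all genes in that fit, and 0 were called.

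*Psmd5* was the gene with the lowest p in Sol. It stood at 22.6, 20.6 and 20.8 CPM in WT and at 30.7, 34.9, 25.9, 31.5 and 24.1 CPM in LSD1-mKO, so that each LSD1-mKO library was above each WT library. Its log2FC was 0.45 ± 0.15 (SE) with an unadjusted p of 0.0104 and an adjusted p of 0.175 by the edgeR quasi-likelihood test, and 0.44 without WT Sol replicate 2. *Psma5*, an alpha ring subunit, stood at 43.8, 52.1 and 45.8 CPM in WT and at 69.2, 64.8, 57.0, 49.6 and 53.6 CPM in LSD1-mKO, with a log2FC of 0.30 ± 0.14 (adjusted p = 0.346). *Psmd1*, a large scaffold of the base, followed at 0.24 ± 0.13 (adjusted p = 0.42). The groups of *Psma5* and *Psmd1* overlapped.

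On the negative side in Sol were *Psmb8* at -0.54 ± 0.29 (SE, adjusted p = 0.42), *Psmd9*, a chaperone of 19S assembly, at -0.38 ± 0.19 (adjusted p = 0.363) and *Psmb10* at -0.38 ± 0.19 (adjusted p = 0.384). *Psmd9* stood at 22.2, 36.0 and 21.5 CPM in WT and at 18.95, 20.8, 17.5, 20.7 and 24.9 CPM in LSD1-mKO. For each of these 3 genes WT Sol replicate 2 was the highest of the Sol libraries, and without it the values were -0.13, -0.09 and -0.08. *Psme2b*, with a mean of 19.8 reads per library in Sol, was the 1 gene whose LSD1-mKO libraries all lay below WT in Sol, and with *Psmd5* it made 2 of 46 whose groups did not overlap, beside 10.8% of all genes.

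**Figure D4:**
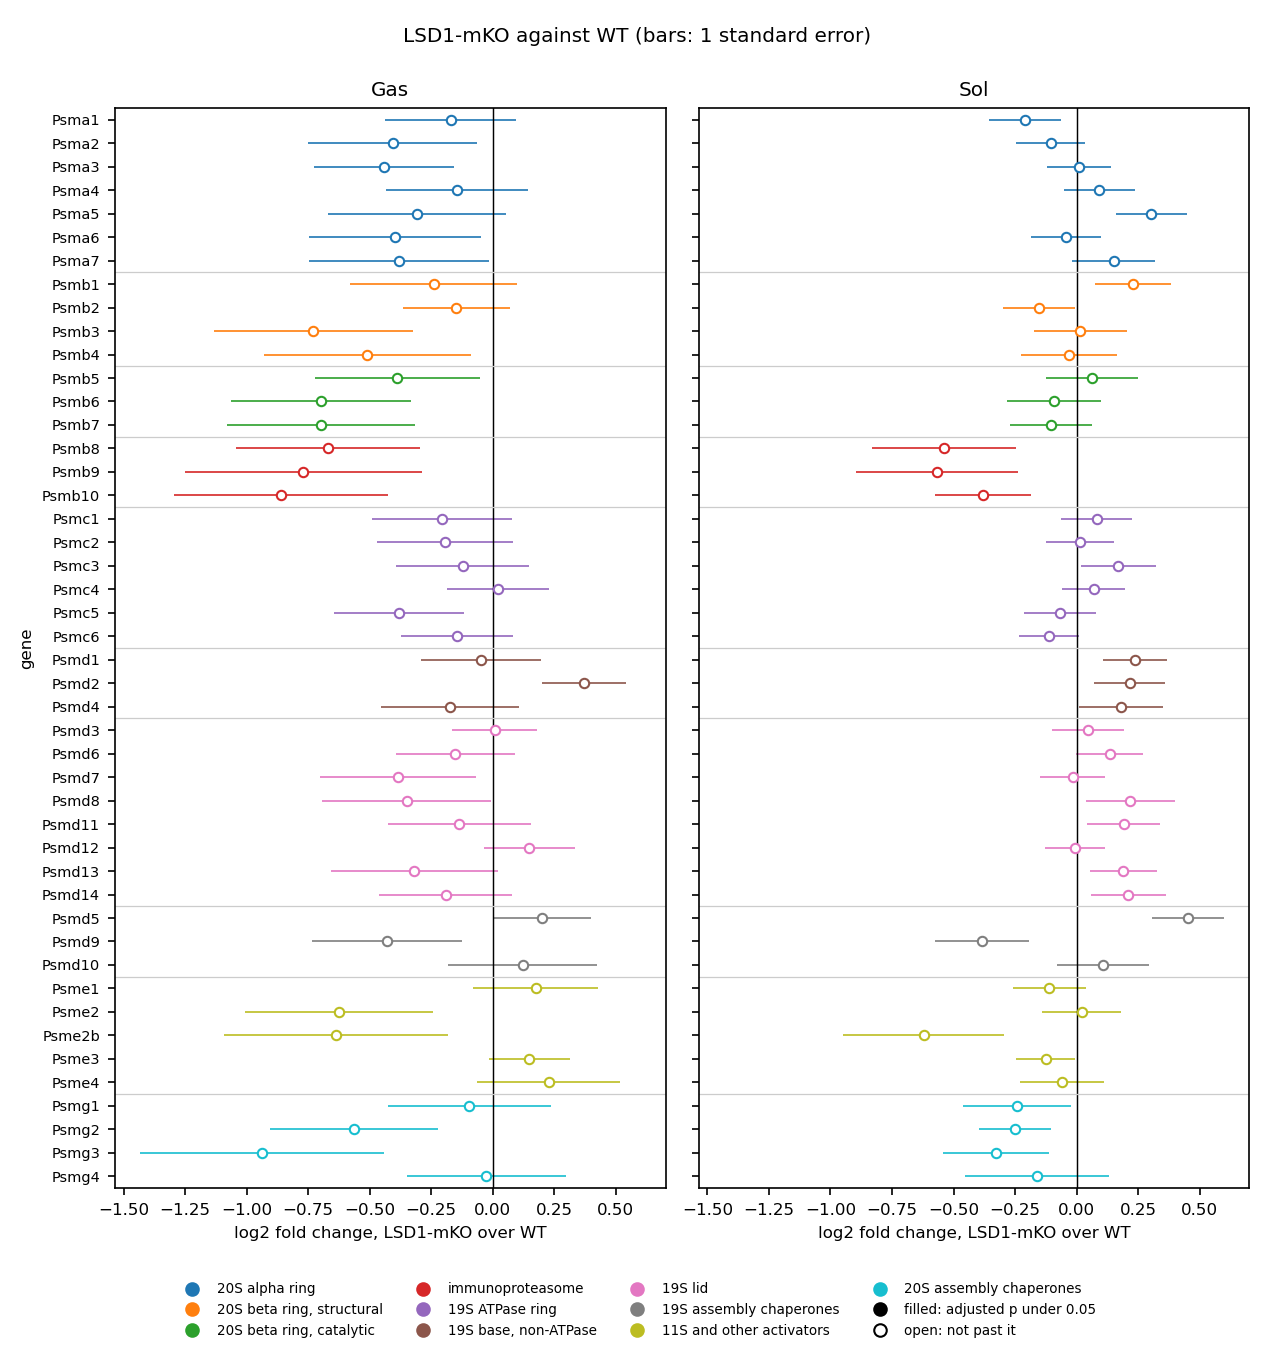
Log2 fold change of LSD1-mKO over WT (horizontal, bars are 1 standard error) for the 46 genes in Gas (left) and Sol (right), coloured by class. All points are open because 0 of 46 passed an adjusted p of 0.05 in either muscle, and the errors are wider in Gas (median 0.30) than in Sol (median 0.15).

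The immunoproteasome had negative values for each gene in both muscles and the most negative class medians, -0.77 in Gas and -0.54 in Sol. None of its genes was called. The 4 chaperones of 20S assembly were likewise all negative in both muscles, with medians of -0.33 and -0.25. The constitutive catalytic subunits had medians of -0.70 in Gas and -0.09 in Sol. In Gas, *Psmb8* was at -0.67 ± 0.37 (SE, adjusted p = 0.568) and *Psmb9* at -0.77 ± 0.48 (adjusted p = 0.596), and in Sol *Psmb9* was at -0.57 ± 0.33 (adjusted p = 0.445). Without the libraries of high ribosomal protein level the values in Gas were -0.38 for *Psmb8*, -0.55 for *Psmb9* and -0.26 for *Psmb10*, and in Sol -0.13, -0.24 and -0.08. When 1 library was left out, the highest values in Gas were -0.14 for *Psmb8*, -0.33 for *Psmb9* and 0.00 for *Psmb10*. Genes of MHC class I presentation and the interferon response are known to be induced together with the immunoproteasome. Of 15 such genes, 14 were negative in Gas (median -0.33, 3 with an unadjusted p under 0.05) and 13 in Sol (median -0.12, 1 with an unadjusted p under 0.05), and 0 were called in either muscle. The unadjusted shares over all genes were 9.06% in Gas and 15.5% in Sol. Without the libraries of high ribosomal protein level, 10 were negative in Gas (median -0.18) and 9 in Sol (median -0.06). The 3 MHC class II genes of the same list, *Cd74*, *H2-Aa* and *H2-Ab1*, which mark antigen-presenting cells, stood lower in each LSD1-mKO Gas library than in each WT Gas library. These 3 were the only genes of the 18 on the full list whose groups did not overlap in Gas, beside 6.95% of all genes. They were at -0.69, -0.80 and -0.89, with unadjusted p of 0.00309, 0.00701 and 0.0127 and adjusted p of 0.339, 0.418 and 0.456. In Sol they were at 0.51, 0.56 and 0.28, with overlap.

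Leukocyte markers were given beside these genes because leukocytes express the immunoproteasome. Of 15 markers, 10 were tested in Gas (5 positive and 5 negative, median -0.03) and 9 in Sol (6 positive and 3 negative, median 0.25). Of these, 1 and 3 had an unadjusted p under 0.05, beside 9.06% and 15.5% of all genes, and 0 were called. *Cd68*, a macrophage marker, was higher without overlap in LSD1-mKO in both muscles, at 0.62 ± 0.25 (SE, adjusted p = 0.537) in Gas and 1.95 ± 0.45 (adjusted p = 0.0699) in Sol. *Itgam*, of myeloid cells, was at 1.21 ± 0.39 without overlap in Sol (adjusted p = 0.167). Groups thus did not overlap for 1 of the 10 markers in Gas and 2 of the 9 in Sol, beside 6.95% and 10.8% of all genes. The 3 negative markers in Sol were *Cd14* at -0.03, *S100a8* at -0.20 and *S100a9* at -0.36. Without WT Sol replicate 2, all 9 were positive in Sol (median 0.52). The lymphocyte markers *Cd3e*, *Cd3d*, *Cd8a* and *Cd79a* were below the filter on low counts in both muscles. The summed leukocyte markers ranged from 162 to 319 CPM in WT Gas, 145 to 314 CPM in LSD1-mKO Gas, 98.1 to 129 CPM in WT Sol and 84.3 to 200 CPM in LSD1-mKO Sol. Their part in the levels of the immunoproteasome was not tested.

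Whether the effect of the genotype differed between the muscles was tested as an interaction over the 16 libraries. Of the 46 genes, 0 were called, beside 0% of the 13749 genes tested, and 0 had an unadjusted p under 0.05, beside 4.88% of all genes. DESeq2 also called 0 of the 46, against 21 of all genes. The interaction was negative for 38 and positive for 8 genes with a median of -0.31 (log2), and 0.17 with 40 genes positive without WT Gas replicate 3. Without the 3 libraries of high ribosomal protein level the median was -0.14 with 14 genes positive, 5 of the 46 (10.9%) had an unadjusted p under 0.05, beside 9.75% of all genes in that fit, and 0 were called. *Psmb3* had the most negative value, -0.77 ± 0.49 (SE, adjusted p = 0.987), and *Psme4* the most positive, 0.28 ± 0.35 (adjusted p = 0.987).

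The proteasome genes were higher in Gas than in Sol where a difference was called in WT mice. In WT, 5 of 46 genes were called, all higher in Gas, beside 17% of the 13749 genes tested (8.25% higher and 8.75% lower), so that the share of the proteasome genes (10.9%) was below that of all genes. Of the 46, 41 were positive, with a median of 0.57 (log2) against 0.01 over all genes, and 19 had an unadjusted p under 0.05, beside 31.8% of all genes. The groups did not overlap for 10 of the 46, 8 of them above and 2 below, beside 30.3% of all genes (14.5% above and 15.9% below). The libraries of the 2 muscles were deposited in separate tables, and any difference in their handling and the difference between muscles cannot be told apart.

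The 5 genes called in WT belonged to the core, the ATPase ring and the lid. *Psmb6*, the constitutive caspase-like subunit whose values are given above, had a log2FC of 1.07 ± 0.35 (SE, adjusted p = 0.0463), with groups that overlapped because WT Sol replicate 2 at 175 CPM exceeded 2 WT Gas libraries. Its call was the least firm of the 5, kept in 5 of the 16 fits that left out 1 library, against 13 of 16 for each of the others, with adjusted p up to 0.337. *Psmd8*, a lid subunit, stood at 305, 339 and 618 CPM in WT Gas and at 204, 224 and 182 CPM in WT Sol (1.05 ± 0.33, adjusted p = 0.0369). *Psma3*, of the alpha ring, stood at 114, 92.7 and 201 CPM in WT Gas and at 77.3, 83.2 and 69.1 CPM in WT Sol (0.83 ± 0.26, adjusted p = 0.0389). *Psmc2*, an ATPase, stood at 199, 196 and 388 CPM in WT Gas and at 135, 177 and 140 CPM in WT Sol (0.79 ± 0.25, adjusted p = 0.0399). *Psmd6*, also of the lid, stood at 189, 181 and 292 CPM in WT Gas and at 129, 152 and 121 CPM in WT Sol (0.72 ± 0.22, adjusted p = 0.0346). For *Psmd8*, *Psma3*, *Psmc2* and *Psmd6* each WT Gas library was above each WT Sol library.

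These calls depended on single libraries. Without WT Gas replicate 3, 0 genes were called, beside 12.4% of all genes in that fit, and the median was 0.06. Without WT Sol replicate 1 or replicate 3, 0 were called, beside 8.07% and 8.53% of all genes, with medians of 0.43 and 0.50. Without WT Gas replicate 1, WT Gas replicate 2, WT Sol replicate 2 or LSD1-mKO Gas replicate 5, the numbers called were 11, 14, 10 and 11 (23.9%, 30.4%, 21.7% and 23.9% of the 46), beside 14.2%, 16.5%, 20.2% and 18.5% of all genes. Without the 3 libraries of high ribosomal protein level, 11 were called (23.9%, beside 21.7% of all genes), all higher in Gas and including the same 5 genes, with a median of 0.19 and 37 genes positive.

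In LSD1-mKO mice, the fit that did not pair libraries called *Psmc2* and *Psme1* higher and *Psmd5* lower in Gas than in Sol. These 3 of 46 genes (6.52%) were called, beside 24.5% of the 13749 genes tested (11.6% higher and 12.9% lower), and 5 had an unadjusted p under 0.05, beside 37.4%. Of the 46, 40 were positive with a median of 0.29 (log2), and groups did not overlap for 4 of the 46 (3 above and 1 below), beside 20.9% of all genes (9.65% above and 11.2% below). Whether LSD1-mKO libraries of the same replicate number came from 1 animal is not given by the labels. Their deviations from the group means correlated at 0.24 to 0.39 between the muscles. With the number as a block only *Psmd5* was called (2.17%, beside 22.3% of all genes).

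*Psmd5* stood at 17.4, 17.9, 18.6, 22.2 and 23.6 CPM in LSD1-mKO Gas and at 30.7, 34.9, 25.9, 31.5 and 24.1 CPM in LSD1-mKO Sol, and each Gas library was below each Sol library. The value was -0.56 ± 0.15 (SE, adjusted p = 0.0104, and 0.0335 with the replicate block). In WT the value of *Psmd5* was -0.30 ± 0.19 (adjusted p = 0.302), and the difference between the genotypes, tested as the interaction, was -0.26 ± 0.24 (adjusted p = 0.987). *Psmc2* stood at 196, 187, 248, 195 and 311 CPM in LSD1-mKO Gas and at 148, 157, 151, 143 and 170 CPM in LSD1-mKO Sol, without overlap. It was higher in Gas by 0.57 ± 0.19 (adjusted p = 0.0431, and 0.0603 with the replicate block). *Psme1*, an interferon-inducible subunit of the activator PA28, stood at 67.9, 58.9, 40.6, 44.9 and 61.1 CPM in LSD1-mKO Gas and at 33.7, 36.6, 33.2, 41.8 and 35.3 CPM in LSD1-mKO Sol, with 1 Gas library inside the Sol range. The log2FC was 0.60 ± 0.18 (adjusted p = 0.0234, and 0.0591 with the replicate block), and in WT it was 0.33 ± 0.24 (adjusted p = 0.354).

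The other genes called in WT had smaller values in LSD1-mKO, at 0.44 ± 0.27 (SE) for *Psmb6*, 0.47 ± 0.25 for *Psmd8*, 0.36 ± 0.20 for *Psma3* and 0.42 ± 0.17 for *Psmd6*, with adjusted p of 0.251, 0.189, 0.21 and 0.0857. The difference of each from WT was not called as an interaction. Without LSD1-mKO Gas replicate 5, *Psmd5* alone was called, beside 19.8% of all genes, and the median was 0.10, and without WT Gas replicate 3, 7 genes were called (15.2%, beside 31.6%). Without the 3 libraries of high ribosomal protein level 7 were called as well (15.2%, beside 31.3% of all genes), with a median of 0.11. Of these, *Psmc2*, *Psmd7* and *Psme1* were higher and *Psma5*, *Psmd5*, *Psmd13* and *Psmd14* lower in Gas. *Psmc3ip*, which is no proteasome gene and whose exons overlap *Mlx*, was higher in LSD1-mKO Gas as well (0.72 ± 0.25, adjusted p = 0.0432, and 0.0891 with the replicate block).

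**Figure D5:**
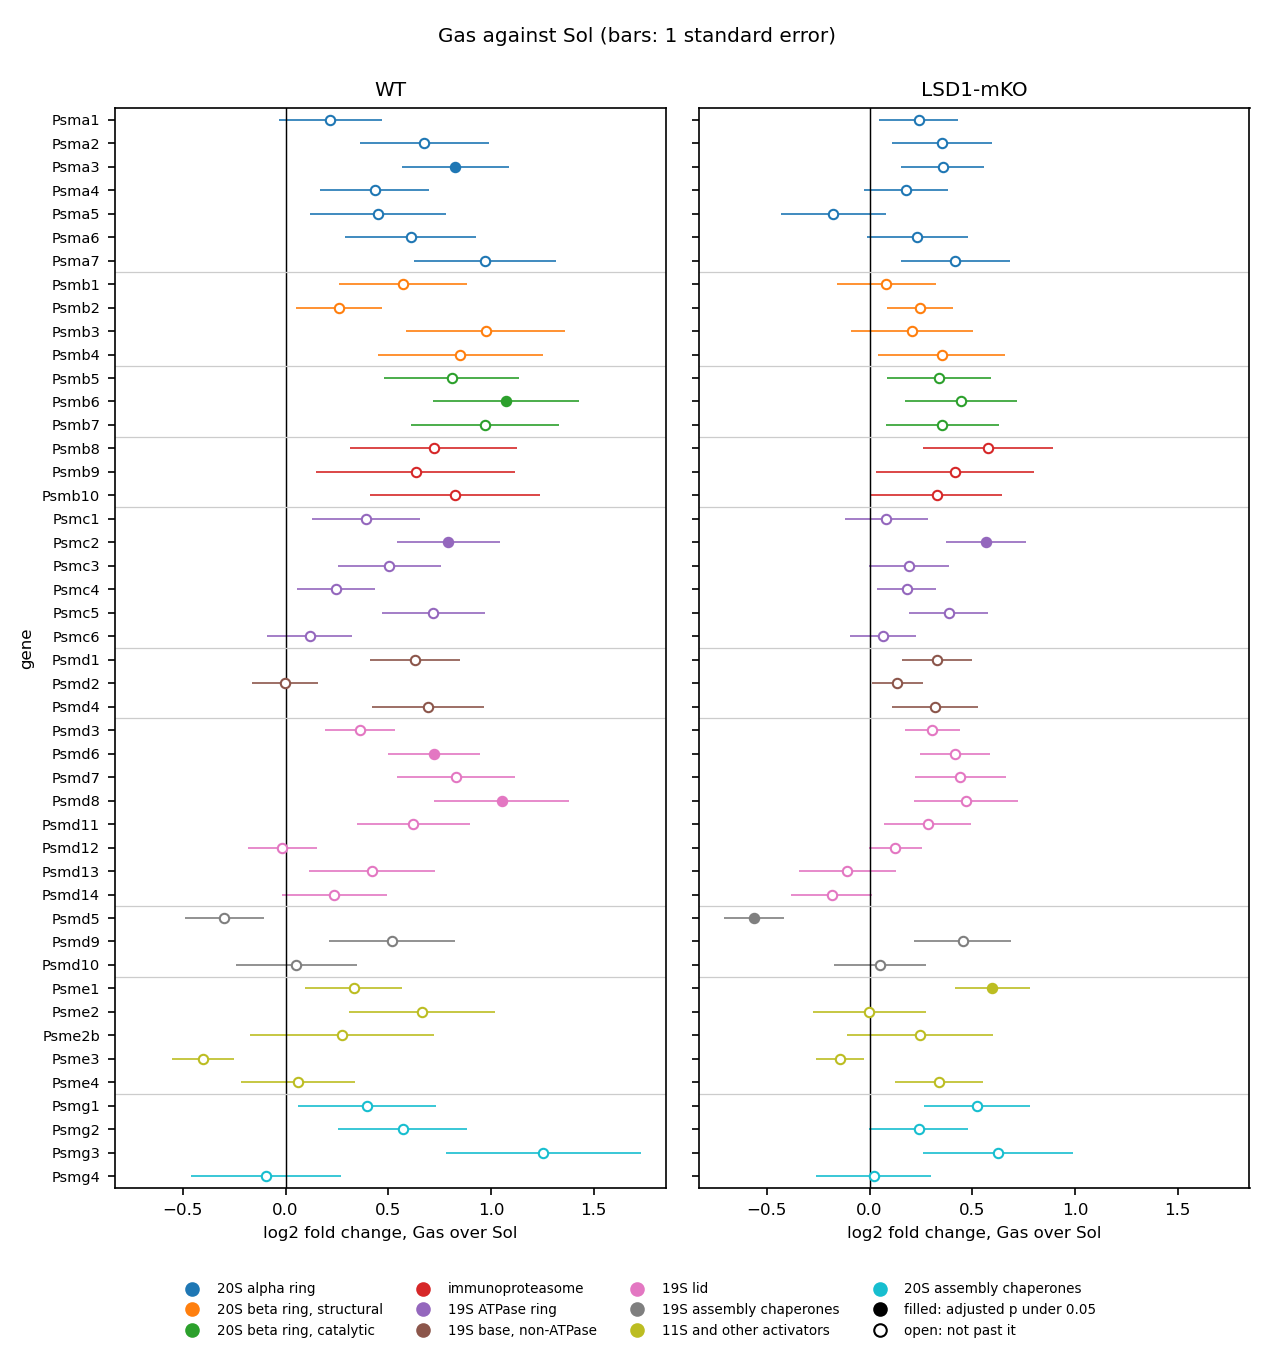
Log2 fold change of Gas over Sol (horizontal, bars are 1 standard error) for the 46 genes in WT (left) and LSD1-mKO (right), coloured by class, with filled points for an adjusted p under 0.05. In WT 41 of 46 points lie above 0 and 5 are filled, and in LSD1-mKO 40 lie above 0 and 3 are filled, *Psmd5* being the filled point below 0.

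Of the 18 genes of MHC presentation and interferon response, 4 were called higher in WT Gas than in WT Sol, beside 8.25% of all genes. These were the class II genes *Cd74*, *H2-Aa* and *H2-Ab1*, and *Irf8*, a factor of myeloid cells. With all libraries 17 of the 18 were positive. Without WT Gas replicate 3, 13 were positive, and *Cd74*, *H2-Aa* and *Irf8* were called, beside 12.4% of all genes in either direction. Without the 3 libraries of high ribosomal protein level the same 4 genes were called, beside 21.7% of all genes in either direction. In LSD1-mKO 1 was called higher (*Irf8*), beside 11.6% of all genes. Of 10 leukocyte markers, 9 were positive in the WT comparison (median 0.89), and 1 was called higher (*Lyz2*), beside 8.25% of all genes. For 4 of the 10, WT Gas lay above WT Sol without overlap, beside 14.5% of all genes. In LSD1-mKO, 7 of the 10 markers were positive and 3 negative (median 0.41). The calls were *Ngp* and *S100a9* higher and *Cd68* lower in Gas, beside 11.6% and 12.9% of all genes. Only *Cd68* had groups without overlap. *Ngp* and *S100a9* had 420 and 663 reads in LSD1-mKO Gas replicate 3, against at most 20 and 81 in the rest of that group. The part of leukocytes in these values was not tested. Of the 3 immunoproteasome genes, 0 were called in either genotype.

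Genes that supply the proteasome with substrates or control its synthesis were taken from a list of 29, of which 28 were tested. None was called between the genotypes in Gas (16 positive, 2 with an unadjusted p under 0.05) or in Sol (15 positive, 3 with an unadjusted p under 0.05). The unadjusted shares over all genes were 9.06% in Gas and 15.5% in Sol. Between the muscles, 3 of the 28 were called higher and 1 lower in Gas in WT, beside 8.25% and 8.75% of all genes. In LSD1-mKO 5 were called higher and 1 lower, beside 11.6% and 12.9% of all genes. Without the 3 libraries of high ribosomal protein level, these numbers were 5 and 1 in WT and 12 and 2 in LSD1-mKO. Of all genes in those fits, 21.7% were called in either direction in WT and 31.3% in LSD1-mKO. Between the genotypes 0 of the 28 were called without those libraries. *Adrm1*, a ubiquitin receptor of the 19S base, was higher in Gas in both genotypes (0.60 ± 0.19, SE, adjusted p = 0.0396 in WT, and 0.57 ± 0.15, adjusted p = 0.00992 in LSD1-mKO). *Zfand5*, an activator of the proteasome that is induced in atrophy, was higher in Gas by 0.65 ± 0.20 and 1.23 ± 0.16, the first of which was not called without those libraries, and neither *Adrm1* nor *Zfand5* was called in WT without WT Gas replicate 3. *Nfe2l1*, the transcription factor that restores proteasome genes when the complex is inhibited, was lower in Gas, at -0.77 ± 0.18 in WT and -0.70 ± 0.14 in LSD1-mKO. Also called higher in LSD1-mKO Gas were *Ddi2*, the protease that activates NFE2L1, at 2.32 ± 0.58 and *Ubqln1*, a shuttle of ubiquitin chains, at 0.39 ± 0.12.

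The muscle-specific ubiquitin ligases *Fbxo32* (atrogin-1) and *Trim63* (MuRF1), which mark proteins for the proteasome in wasting muscle, were both higher in Gas. In Gas they were higher than in Sol by 1.81 ± 0.50 (SE, adjusted p = 0.0203) and 3.25 ± 0.63 (log2) in WT and by 1.99 ± 0.39 and 3.35 ± 0.49 in LSD1-mKO, with groups that did not overlap, and both were called in both genotypes without the 3 libraries as well. Of all genes, 30.3% in WT and 20.9% in LSD1-mKO had groups without overlap. Between the genotypes *Fbxo32* was at 0.33 ± 0.46 in Gas and 0.13 ± 0.34 in Sol, and *Trim63* at -0.52 ± 0.49 and -0.64 ± 0.44, all with groups that overlapped and none called. Without WT Sol replicate 2 both were positive in Sol, with a median of 0.31, and neither was called.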

How the data were processed

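Poly(A) RNA of 2 muscles (3 WT and 5 LSD1-mKO libraries each) was sequenced from one end with 75 bp. The authors used STAR and mm10 for alignment, and featureCounts 1.5.2, per the file headers, for raw counts per gene, which were deposited without normalization. No strand option is named, so overlapping or antisense genes (*Psmb7* and *Nek6*, *Psmb9* and *Tap1*) and the paralogs *Psme2* and *Psme2b* are uncertain. The authors' tables of comparisons (log2 fold change, mean log2 CPM, p, adjusted p) were not used. No count column belonged to another sample.

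The counts were tested with edgeR 4.0.16 in R 4.3.3 (filterByExpr with a minimum count of 10, TMM, two-sided quasi-likelihood F-test), over the 8 libraries of a muscle for the genotype and over the 16 libraries for the interaction and the muscles. A gene was called where its p, adjusted by Benjamini-Hochberg over all genes tested, was under 0.05. SEs were taken as log2FC over the root of F. Exon lengths and coordinates are those of RefSeq-matched GENCODE transcripts (GRCm38). The script was tested on simulated data. Values of 2 genes of the lists are not reported here.

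The members and lists were chosen with earlier results of these data known. Genes were named by a fixed rule that took the catalytic pairs, any member called between genotypes, and in each muscle the 3 largest changes either way among members averaging 50 reads or more. It added the 3 largest called changes either way between muscles, the extremes of level in each class, members not kept, *Psmc3ip*, *Kdm1a* and pathway genes called between genotypes. *Psmc2* and *Psmd6* in WT, *Psme2b*, *Psme3*, *Psma6*, markers and MHC genes, members named without some libraries and pathway genes called between muscles were chosen after their values were seen. Deviations of libraries of the same number from their group means correlated at 0.24 to 0.39 between LSD1-mKO Gas and Sol, over 0.1 in all 5 pairs, and at -0.58 to 0.16 in WT. Alternatives were RLE scaling, no filter, DESeq2 1.42.0, the replicate block, one fit of all libraries, and leaving out each library. Leaving out the 3 libraries of high ribosomal protein level and taking the exons of every transcript were chosen after seeing the data.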

Additional observations from a re-analysis of the deposited data

Results flagged for a closer look

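Among 50 groups of 5 libraries examined (the named genes and the summed measures in LSD1-mKO Gas and Sol), 12 held a library that stood apart from the other 4 by more than 0.71 of the range of the group. Chance alone flags about 1 in 20 independent groups. These genes and sums share libraries and move together, so the 12 are not independent and cannot be set against that rate. In 11 of the 12 it was LSD1-mKO Gas replicate 5. This library was high for the constitutive catalytic subunits, with *Psmb5* at 97.3 CPM (43.2 to 58.7 in the others), *Psmb6* at 257 CPM (131 to 155) and *Psmb7* at 468 CPM (222 to 255). Their sum was 823 CPM (399 to 462). It was also high for *Psmb3* at 114 CPM (54.1 to 60.7), *Psma3* at 148 CPM (81.7 to 93.3), *Psma5* at 73.9 CPM (42.4 to 51.1), *Psmb10* at 21.5 CPM (9.22 to 12.6), *Psmd9* at 43.4 CPM (22.3 to 25.7) and *Psmg3* at 18.8 CPM (5.82 to 8.23). The median deviation of the 46 genes was 0.55 there and -0.13 to -0.01 in the other 4. The remaining case was *Psme4* in LSD1-mKO Gas replicate 3, at 468 CPM against 202 to 262. Groups of 3, such as WT Gas, are too small for this rule.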

How the results depend on the processing

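None of the 46 genes was called between the genotypes in Gas or Sol, or as an interaction, under any alternative run. The median in Gas ranged from -0.44 to 0.21 when 1 library was left out, the median in Sol from -0.06 to 0.14, and that of the interaction from -0.46 to 0.17. In Sol without WT Sol replicate 2, *Psmb6* and *Psmb7* turned to 0.25 and 0.12. Leaving out 1 library moved *Psmb5* from -0.65 to 0.074, *Psmb10* from -1.15 to 0.0038, *Psme4* from -0.026 to 0.45, *Psmb3* from -1.02 to 0.070 and *Psmg3* from -1.32 to 0.0040 in Gas. In Sol it moved *Psmb5* from -0.061 to 0.33, *Psmb6* from -0.23 to 0.25 and *Psmb7* from -0.20 to 0.12. *Psmc3ip* between the muscles in WT ranged from -0.15 to 0.58.

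For Gas against Sol in WT, 12 genes were called by DESeq2 (26.1%, beside 21.8% of all genes) and 11 without the libraries of high ribosomal protein level (23.9%, beside 21.7%), against 5 (10.9%, beside 17%), and 0 to 14 when 1 library was left out, with medians from 0.061 to 0.77. With the replicate block 0 were called, beside 14.2%. In WT, 0 of 3 Gas libraries correlated best with the Sol library of their own number, against 5 of 5 in LSD1-mKO. The labels do not tie libraries to animals. In LSD1-mKO, 5 genes were called by DESeq2 (10.9%, beside 29%), 1 with the replicate block (2.17%, beside 22.3%) and 7 without those libraries (15.2%, beside 31.3%), against 3 (6.52%, beside 24.5%), and 1 to 7 when 1 library was left out, with medians from 0.10 to 0.35. The replicate block changed no other call of the proteasome genes. With the exons of every transcript as the length, the median level was 46.0, 39.0, 31.2 and 32.7 CPM per kilobase in WT Gas, LSD1-mKO Gas, WT Sol and LSD1-mKO Sol.

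With 3 WT libraries per muscle and a median SE of 0.30 in Gas, changes of the size seen there could not be told from the spread between libraries. Genes of few reads, such as *Psmb9* and *Psme2b*, are limited by counting error as well.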
